A study of Mus musculus with 7 samples.

Results

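Macrophages make cholesterol, take it up with the cells and debris they engulf, and export what they cannot use. The genes described here are 38 genes of this traffic, namely the enzymes of cholesterol synthesis, the proteins that sense sterols, the genes of cholesterol efflux, and enzymes of fatty acids and oxysterols. They were found by gene symbol among the probe sets that name a single gene, and 36 of the 38 were measured, of 19938 genes in all. Nr1h2 and Soat1 had no such probe set and are not analysed here. RNA came from macrophages that had been collected by cell sorting out of the lamina propria of the colon, in 6-week-old C57BL/6 mice, and was read on 7 Affymetrix arrays. Resident WT (3 arrays) and CX3CR1hi WT (1 array) came from mice with a GFP reporter in place of 1 Cx3cr1 allele (CX3CR1gfp/+), sorted under the labels resident and CX3CR1hi. Il10ra_mKO (2 arrays, label resident) came from CX3CR1cre:IL10Raflox/flox mice, in which Cre driven by Cx3cr1 removes Il10ra, the ligand-binding chain of the IL-10 receptor. Il10_KO (1 array, label CX3CR1hi) came from IL10-/- CX3CR1gfp/+ mice, which lack the cytokine IL-10. All groups carry a changed Cx3cr1 allele, GFP or Cre, and no array carries Cre without the deletion, so what the Cre allele does and what losing Il10ra does cannot be told apart. Cre under Cx3cr1 acts in any cell that expresses Cx3cr1. The comparisons ask how the lipid genes differ when Cre under Cx3cr1 targets Il10ra and when mice lack IL-10. Whether the sorted cells could still sense IL-10 was not tested.

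Cholesterol is built from acetyl-CoA through mevalonate, farnesyl units, squalene and lanosterol. When sterols run low, SCAP escorts the SREBP transcription factors from the endoplasmic reticulum, where INSIG proteins otherwise hold them, and SREBP2 turns on most enzymes of the path together with NF-Y, a factor that binds CCAAT boxes. When sterols are plentiful, oxysterols activate the LXR receptors (Nr1h3 encodes LXR-alpha), which turn on efflux pumps, apolipoprotein E and enzymes of membrane lipids. In macrophages LXR also restrains inflammatory genes and supports the clearance of dying cells.

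The values are log2 expression, and a difference of 1 on this scale is a 2-fold change. Values were compared only within a sort label. Any pair of resident arrays held exactly equal values in 4547 to 6936 of the 35399 rows, whereas a resident and a CX3CR1hi array shared at most 2, so the values of each sort label may have been computed apart. Of all genes, 60.4% had fewer than 5 distinct values over the 5 resident arrays, among them 6 of the 36 members, and such ties make the spread of a gene look small. Il10ra stood at 10.56, 10.76 and 11.12 in resident WT and at 8.05 and 7.04 in Il10ra_mKO, and at 11.32 and 11.61 in CX3CR1hi WT and Il10_KO. Its level in Il10ra_mKO was 9.63-fold lower, and even this difference did not pass over all genes (limma, adjusted p = 0.243). Il10 was at 9.76, 9.83 and 10.86 in resident WT, at 10.21 and 10.43 in Il10ra_mKO, at 11.04 in CX3CR1hi WT and at 10.75 in the array labelled Il10_KO. The labels do not place the Il10 probes inside or outside the deletion, so this level checks nothing, and directions for that array rest on its label. Macrophage markers averaged 11.19 to 11.61 over the 7 arrays, with Adgre1, Csf1r and Cd68 above 12 in each. Of these 15 markers, 4 were above and 4 below all resident WT arrays in Il10ra_mKO, against 8.92% and 8.50% of all genes. Mertk and Aif1 differed by 0.95 and 0.64 on average, and Cd163 and Mrc1 by -1.70 and -0.78. Epithelial RNA was abundant too: the mean of all 14 epithelial markers was 10.33, 10.70 and 10.35 in resident WT, 10.44 and 8.71 in Il10ra_mKO, 11.19 in CX3CR1hi WT and 10.60 in Il10_KO. Il10ra_mKO array 2 was thus below the other arrays, and the part of epithelial RNA in the results below was not tested. In sorted bulk RNA, fewer cells of a type and less RNA per cell cannot be told apart.

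Of the 17 synthesis enzymes, 14 overlapped between Il10ra_mKO and resident WT, while 3 were higher and 0 lower without overlap. Of all genes, 8.92% were higher and 8.50% lower without overlap. In Il10ra_mKO, Nr1h3 and Abcg1 were the members at least 2-fold higher than in resident WT, and none was 2-fold lower (0.953% and 1.43% of all genes). Nr1h3 was also over 2-fold higher in the Il10_KO array, as was the lipase gene Lpl, and again none was 2-fold lower (0.692% and 1.22% of all genes). The sterol carrier gene Stard4 stood lower in all 3 mutant arrays. By limma with Benjamini-Hochberg adjustment over all 19938 genes, 0 of the 36 members passed an adjusted p of 0.05 in Il10ra_mKO, at which 0.00502% of all genes passed. At an unadjusted p under 0.05 by limma, 4 members were higher (Nr1h3, Abcg1, Pmvk and Insig1) and 1 was lower (Stard4), against 4.06% and 3.86% of all genes. The arrays did not overlap for 6 members that were higher and 3 that were lower, against 8.92% and 8.50% of all genes. The 36 differences had a median of 0.01 on the log2 scale, and all 19938 genes had a median of 0.

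**Figure D1:**
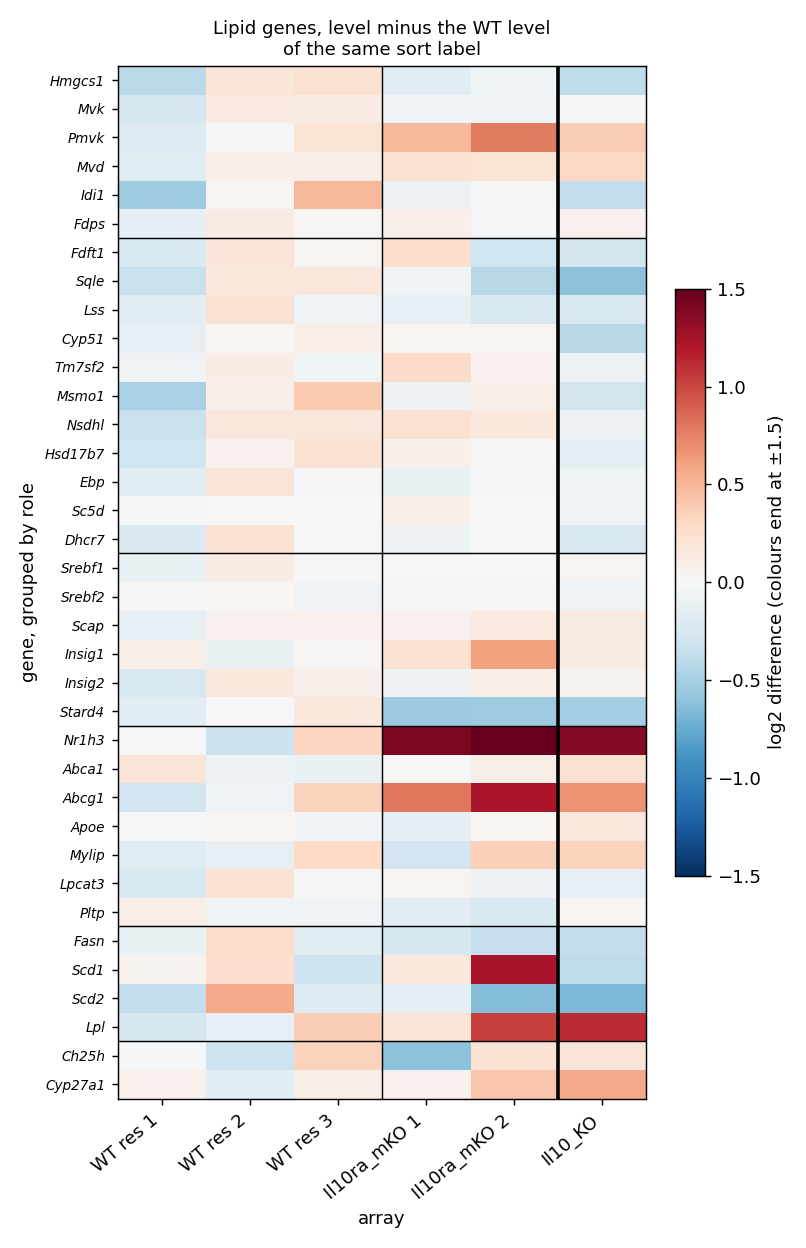
Level of the 36 measured genes in each array minus the WT level of the same sort label (log2, red higher, blue lower, colours end at ±1.5). Columns are the 3 resident WT arrays (WT res) and the 2 Il10ra_mKO arrays, each minus the resident WT mean, and the Il10_KO array minus the CX3CR1hi WT array; horizontal lines part the roles, from mevalonate enzymes at the top to oxysterol enzymes at the bottom. Nr1h3 and Abcg1 are red and Stard4 is blue in all 3 mutant arrays, and 16 of the 17 synthesis enzymes were lower in WT array 1 than in the other WT arrays.

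Nr1h3 (probe set 10484987), the gene of LXR-alpha, was at 8.07, 7.75 and 8.39 in resident WT and at 9.48 and 10.06 in Il10ra_mKO. Each mutant array lay more than 1 log2 unit above every WT array. The difference was 1.70 ± 0.28 (SE) on the log2 scale, a 3.25-fold higher level, which did not pass over all genes (limma, adjusted p = 0.341). It was 1.41 with Il10ra_mKO array 1 alone and 1.99 with array 2 alone. The epithelial marker means of these arrays were 10.44 and 8.71, and the part of epithelial RNA in the difference was not tested. In the Il10_KO array Nr1h3 stood at 8.95 against 7.57 in CX3CR1hi WT, 2.59-fold higher. The difference between both effects was 0.33 ± 0.53 (SE; limma, adjusted p = 0.937), with the lone arrays assumed to vary like the others.

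Abcg1 (probe set 10443730) encodes a pump that hands cholesterol to high-density lipoprotein and is a classical LXR target. It was at 8.95, 9.18 and 9.57 in resident WT and at 10.02 and 10.46 in Il10ra_mKO. Both mutant arrays lay above all WT arrays, by 1.01 ± 0.26 (SE) on average (limma, adjusted p = 0.482), a 2.01-fold difference. In Il10_KO it stood at 9.66 against 8.99 in CX3CR1hi WT, 1.59-fold higher. Without Il10ra_mKO array 2 its difference was 0.79, and without array 1 it was 1.23. Its unadjusted p by limma was no longer under 0.05 without Il10ra_mKO array 2, WT array 1 or WT array 2.

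The other LXR and efflux genes differed less. Abca1, the pump that loads lipid-poor apolipoprotein A-I and the other textbook LXR target pump, was at 10.38, 10.11 and 10.09 in resident WT and at 10.19 and 10.29 in Il10ra_mKO. Its mutant arrays lay inside the WT range, with a difference of 0.04 ± 0.12 (SE), and in Il10_KO it stood at 11.25 against 11.02. Apoe, which carries cholesterol out of macrophages, was at 13.41, 13.44 and 13.36 in resident WT and at 13.27 and 13.43 in Il10ra_mKO, and the groups overlapped. It was 13.08 in Il10_KO and 12.92 in CX3CR1hi WT. Mylip, a ubiquitin ligase that degrades lipoprotein receptors, and Lpcat3, which puts polyunsaturated chains into phospholipids, differed by 0.03 ± 0.28 and -0.02 ± 0.16 (SE). Pltp, a phospholipid transfer protein, stood at 11.61, 11.45 and 11.46 in resident WT and at 11.33 and 11.28 in Il10ra_mKO. Its arrays did not overlap, but the difference was -0.20 ± 0.073 (SE; limma, adjusted p = 0.639), and in Il10_KO it was 0.03. Over the 7 measured genes of this role the median difference was 0.03 in Il10ra_mKO and 0.23 in Il10_KO, against 0 and 0.03 over all genes. The first of these medians lay between -0.05 and 0.09 over the alternatives, so it has no settled direction.

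**Figure D2:**
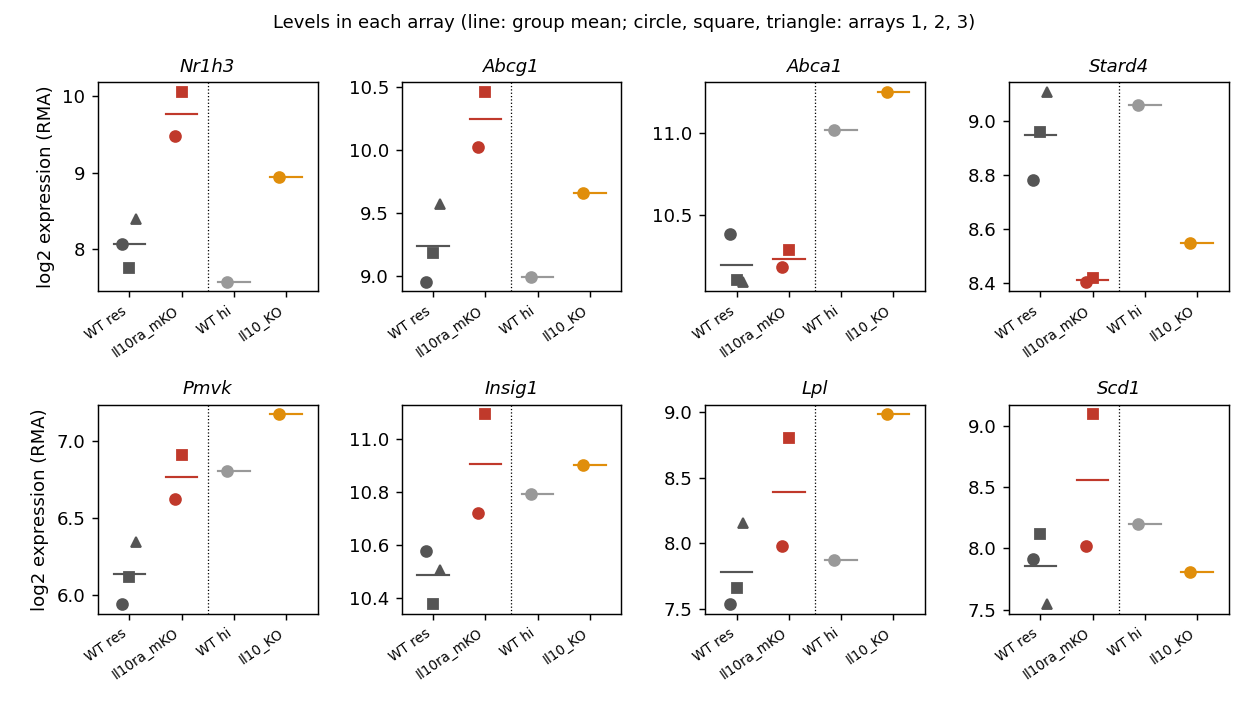
Log2 expression of 8 genes in each array: resident WT (WT res, 3 arrays), Il10ra_mKO (2), CX3CR1hi WT (WT hi, 1) and Il10_KO (1). Circles, squares and triangles are arrays 1, 2 and 3 of a group, lines are group means, the dotted line parts the sort labels, and the vertical axes differ and do not start at 0. Nr1h3 and Abcg1 are higher and Stard4 is lower in each mutant than in every WT array of its label, whereas the Abca1 values of Il10ra_mKO lie among those of resident WT.

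Among the genes of sterol sensing, Stard4 (probe set 10458033), a carrier that moves cholesterol between membranes and is an SREBP2 target, was at 8.78, 8.96 and 9.11 in resident WT. It was at 8.40 and 8.42 in Il10ra_mKO, below every WT array. The level was lower by -0.54 ± 0.11 (SE) on the log2 scale, 1.45-fold, without passing (limma, adjusted p = 0.416). In Il10_KO it stood at 8.55 against 9.06 in CX3CR1hi WT, 1.43-fold lower. Its unadjusted p by limma was no longer under 0.05 without either Il10ra_mKO array, though the difference was then -0.53 and -0.54. Insig1 (probe set 10520362), which holds SCAP in the endoplasmic reticulum, was at 10.58, 10.37 and 10.50 in resident WT and at 10.72 and 11.09 in Il10ra_mKO. Its arrays did not overlap, the difference was 0.42 ± 0.15 (SE; limma, adjusted p = 0.615), and it was 0.23 without array 2. Insig1 no longer had an unadjusted p under 0.05 by limma under quantile normalization, with a block for the run of numbers in the sample titles, or without any 1 of the 3 WT arrays or Il10ra_mKO array 2. In Il10_KO Insig1 was 0.11 higher on the log2 scale.

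The SREBP genes themselves were level. Srebf2, whose product drives cholesterol synthesis, stood at 9.23, 9.25 and 9.16 in resident WT and at 9.23 in both Il10ra_mKO arrays. The mutant values fell among those of WT and equalled that of WT array 1, a tie that makes the spread look small. Srebf1, whose product drives fatty acid synthesis, stood at 7.17, 7.38 and 7.26 in resident WT and at 7.27 in both Il10ra_mKO arrays. Differences were 0.02 ± 0.047 (SE) for Srebf2 and 0.00 ± 0.075 for Srebf1, and in Il10_KO they were -0.07 and 0.04. Scap and Insig2 differed by 0.10 ± 0.085 and 0.01 ± 0.15 (SE) in Il10ra_mKO and by 0.13 and 0.06 in Il10_KO.

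The enzymes of synthesis share a feature in their promoters, which is given here as background. Its relation to the expression values was not tested. RefSeq promoter sequences (mouse build GRCm38.p6) were matched by symbol for 30 of the 38 genes, 14 of them synthesis enzymes. In the 250 bases before the start, searched on both strands, the CCAAT box (read ATTGG on the other strand) occurred in 14 of these 14 enzymes, in 3 of 7 LXR and efflux genes and in 37.5% of all 27025 genes in the table. Within the last 100 bases it occurred in 13 of 14 enzymes and in 21.6% of all genes. The sterol response element, searched as TCACNCCAC, was found in Hmgcs1 alone among the 30, 137 bases before its start, and in 1.22% of all genes, and no match says only that these letters are not in the window. A gene with several starts was counted if any of them had a match. A match is a run of letters and not a known binding site. The stretches below end at the base before the start, read 5′ to 3′, and carry CCAAT or ATTGG and the sterol response element in capitals; they show the shared box in 6 enzymes with a single start in the table, and Nr1h3 from its upstream start, which holds none.
Hmgcs1, chr13:119690201-119690350, plus strand: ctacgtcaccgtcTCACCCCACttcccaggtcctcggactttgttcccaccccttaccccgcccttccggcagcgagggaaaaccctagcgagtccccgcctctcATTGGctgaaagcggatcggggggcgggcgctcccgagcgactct
Idi1, chr13:8885506-8885605, plus strand: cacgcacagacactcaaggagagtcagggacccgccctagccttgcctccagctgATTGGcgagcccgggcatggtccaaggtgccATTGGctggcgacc
Lss, chr10:76531505-76531604, plus strand: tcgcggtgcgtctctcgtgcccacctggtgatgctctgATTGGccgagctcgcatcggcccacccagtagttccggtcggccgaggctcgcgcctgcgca
Cyp51, chr5:4104698-4104797, minus strand: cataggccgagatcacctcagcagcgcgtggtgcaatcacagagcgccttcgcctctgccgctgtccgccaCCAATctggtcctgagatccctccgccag
Nsdhl, chrX:72918401-72918520, plus strand: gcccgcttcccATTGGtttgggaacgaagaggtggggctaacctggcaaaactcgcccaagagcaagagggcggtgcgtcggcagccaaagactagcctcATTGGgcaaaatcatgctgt
Sc5d, chr9:42264301-42264400, minus strand: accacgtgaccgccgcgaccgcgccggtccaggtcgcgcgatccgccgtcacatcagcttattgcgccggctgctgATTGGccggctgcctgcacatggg
Nr1h3, chr2:91195117-91195266, minus strand: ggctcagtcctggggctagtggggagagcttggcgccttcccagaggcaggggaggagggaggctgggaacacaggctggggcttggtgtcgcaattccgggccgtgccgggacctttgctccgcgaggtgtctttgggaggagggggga

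In Il10ra_mKO the 17 enzymes of synthesis had a median difference of 0.00 on the log2 scale, with 8 higher and 9 lower. That split was 6 and 11 after quantile normalization of the arrays and 11 and 6 after median centring. The whole range ran from -0.23 for Sqle to 0.63 for Pmvk. Pmvk (probe set 10493548), phosphomevalonate kinase, was at 5.94, 6.12 and 6.34 in resident WT and at 6.62 and 6.91 in Il10ra_mKO. It was thus higher in both mutant arrays than in any WT array, by 0.63 ± 0.17 (SE; limma, adjusted p = 0.486), a 1.55-fold difference, and it was 0.37 higher in Il10_KO. Its unadjusted p by limma was no longer under 0.05 without Il10ra_mKO array 2, WT array 1 or WT array 2. Mvd, which makes isopentenyl pyrophosphate in the next step, was at 7.43, 7.70 and 7.70 in resident WT and at 7.84 and 7.81 in Il10ra_mKO. Its groups were apart by a small margin, with a difference of 0.22 ± 0.11 (SE) that was 0.13 without WT array 1, and it was 0.31 higher in Il10_KO. Sc5d, an enzyme late in the path, also did not overlap, at 9.22 to 9.25 against 9.32 and 9.25, but its difference of 0.04 ± 0.043 (SE) was 0.011 without Il10ra_mKO array 1 and turned to -0.024 after quantile normalization.

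Sqle, squalene epoxidase, a slow step of the path, was at 8.10, 8.59 and 8.59 in resident WT and at 8.38 and 8.005 in Il10ra_mKO. The groups overlapped, and the difference was -0.23 ± 0.23 (SE; limma, adjusted p = 0.755). Hmgcs1, which makes HMG-CoA at the head of the path, was at 9.30, 9.89 and 9.94 in resident WT and at 9.54 and 9.65 in Il10ra_mKO. Its mutant arrays lay between the lowest and the other WT arrays, with a difference of -0.12 ± 0.24 (SE). The remaining enzymes overlapped as well: Idi1, Msmo1, Cyp51, Hsd17b7, Fdps, Fdft1, Mvk, Dhcr7 and Ebp differed by at most 0.06 in size, and Lss, Tm7sf2 and Nsdhl by -0.18, 0.18 and 0.19.

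WT array 1 set much of the spread in these enzymes. It was the lowest of the 3 resident WT arrays for 16 of the 17, the exception being Tm7sf2, whereas 29.0% of all genes were lowest there. Idi1, for example, stood at 8.47 in WT array 1 and at 9.04 and 9.50 in the others, and Msmo1 at 9.23 against 9.80 and 10.11. The mean of the 17 enzymes was 8.05, 8.41 and 8.42 in the WT arrays and 8.35 and 8.31 in Il10ra_mKO, between WT array 1 and the others. Without WT array 1, 12 of the 17 enzymes were lower in Il10ra_mKO, and Hmgcs1 and Mvk joined the members lower at an unadjusted p under 0.05 by limma. Without WT array 2 the split was 13 higher and 4 lower. The epithelial marker mean was 10.33, 10.70 and 10.35 in the WT arrays, and the part of epithelial RNA in this spread was not tested.

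In the Il10_KO array the enzymes leaned lower, with no replicate to test it. Of the 17 enzymes, 14 were lower and 3 were higher than in CX3CR1hi WT (13 and 4 after median centring), against 43.7% and 56.3% of all genes. All 11 enzymes from squalene synthase onward were lower, by -0.61 for Sqle to -0.06 for Sc5d. Sqle stood at 8.82 against 9.43, a 1.53-fold lower level, and Cyp51, the lanosterol demethylase, at 8.90 against 9.33. Hmgcs1 stood at 10.41 against 10.80 and Idi1, the isopentenyl isomerase, at 9.67 against 10.04, while Pmvk, Mvd and Fdps were the 3 that were higher. The median over the 17 was -0.14, and the spread of WT in that sort label is unknown. The mean over the 17 differed by -0.15, whereas the SD of that mean between the resident WT arrays was 0.21. The enzymes moved together between those WT arrays, so the 17 do not count as replicates. The epithelial marker mean was 10.60 in the Il10_KO array against 11.19, and its part in this was not tested.

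**Figure D3:**
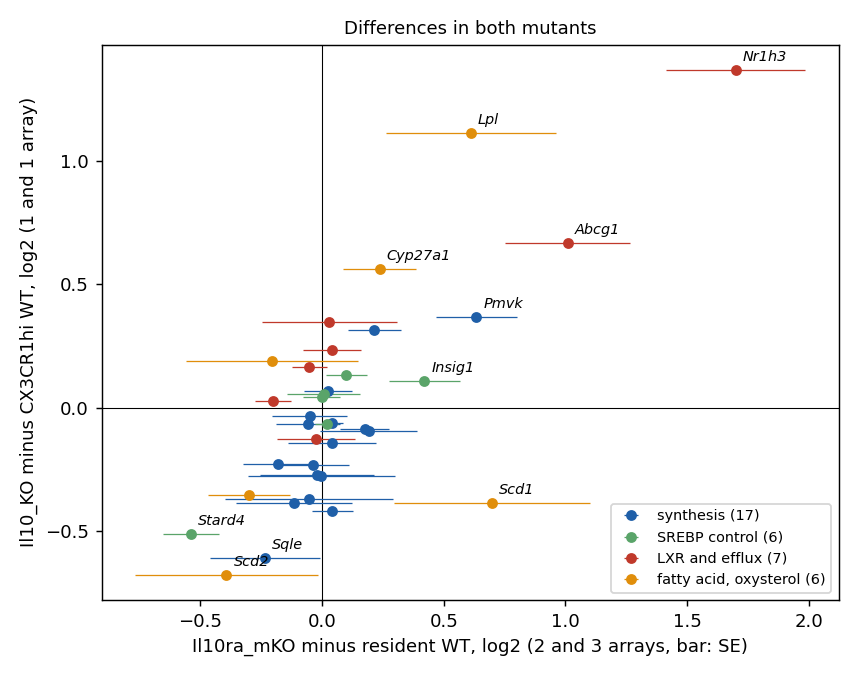
Difference in Il10ra_mKO (horizontal, log2, 2 against 3 arrays, bars are SE) against the difference in Il10_KO (vertical, log2, 1 against 1 array) for the 36 genes, coloured by role. Nr1h3, Abcg1 and Lpl lie at the upper right and Stard4 at the lower left, while the synthesis enzymes spread along the vertical axis, mostly below 0.

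The synthesis enzymes were also set against the LXR and efflux genes within each array, as a description of these lists. The LXR and efflux list holds Nr1h3, Mylip and Lpcat3, which do not themselves export cholesterol, so the score does not measure export. The mean of the 7 LXR and efflux genes was 10.15, 10.15 and 10.32 in resident WT and 10.44 and 10.69 in Il10ra_mKO, above all WT arrays. Synthesis minus efflux was -2.10, -1.74 and -1.90 in resident WT and -2.09 and -2.38 in Il10ra_mKO, so array 1 lay within the WT range and array 2 below it. The group difference was -0.32, and it was -0.17 without Il10ra_mKO array 2. Leaving Nr1h3 and Abcg1 out of the efflux mean turned it to 0.078, and in Il10_KO moved it from -0.53 to -0.28. Levels of different probe sets are not on a shared scale, so only the change of this difference between arrays carries meaning.

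**Figure D4:**
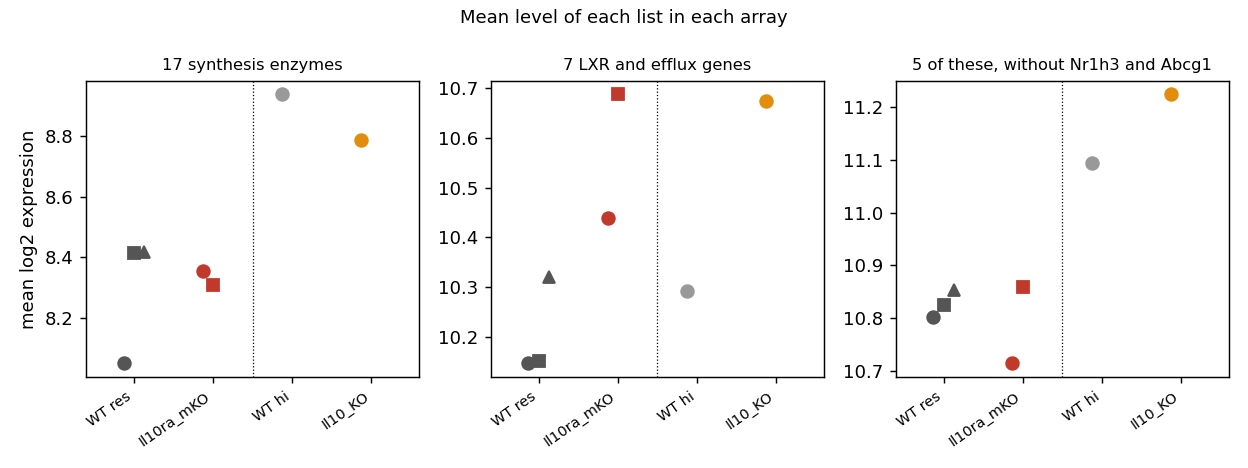
Mean log2 level in each array of the 17 synthesis enzymes, the 7 LXR and efflux genes, and 5 of these without Nr1h3 and Abcg1, by group; circles, squares and triangles are arrays 1, 2 and 3, and the dotted line parts the sort labels. The Il10ra_mKO arrays lie above all resident WT arrays for the 7 LXR and efflux genes (10.44 and 10.69 against 10.15 to 10.32) while for the 5 they lie on either side of them (10.71 and 10.86 against 10.80 to 10.85).

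The fatty acid genes differed between arrays more than between groups. Fasn, fatty acid synthase, was at 8.57, 8.95 and 8.49 in resident WT and at 8.41 and 8.33 in Il10ra_mKO, just below every WT array. Its difference was -0.30 ± 0.17 (SE; limma, adjusted p = 0.678), -0.16 without WT array 2, and -0.35 in Il10_KO. Scd1 and Scd2 encode desaturases that make monounsaturated fatty acids. Scd1 was at 7.92, 8.11 and 7.54 in resident WT and at 8.02 and 9.09 in Il10ra_mKO, so array 2 stood apart and array 1 did not. Its difference was 0.70 ± 0.40 (SE) with both arrays and -0.39 in Il10_KO. Array 2 was also the array low in epithelial markers, and the part of epithelial RNA in the Scd1 values was not tested. Scd2 was at 11.12, 12.06 and 11.29 in resident WT and at 11.36 and 10.84 in Il10ra_mKO, and at 11.05 in Il10_KO against 11.73.

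Lpl, lipoprotein lipase, which frees fatty acids from lipoproteins, was at 7.53, 7.66 and 8.15 in resident WT and at 7.98 and 8.80 in Il10ra_mKO. The groups overlapped through WT array 3, with a difference of 0.61 ± 0.35 (SE; limma, adjusted p = 0.678). In Il10_KO it stood at 8.98 against 7.87, a 2.17-fold higher level. With that block, Lpl had an unadjusted p under 0.05 by limma; it was 0.38 higher in the first run (WT arrays 1 and 2, Il10ra_mKO array 1) and 0.65 higher in the second (WT array 3, Il10ra_mKO array 2). Within these runs Nr1h3 was 1.57 and 1.66 higher, Abcg1 0.96 and 0.89 higher and Pmvk 0.59 and 0.57 higher, while Insig1 was 0.24 and 0.59 higher and Stard4 differed by -0.46 and -0.69.

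Among oxysterol enzymes, Cyp27a1, which makes 27-hydroxycholesterol, was at 10.30, 10.09 and 10.33 in resident WT and at 10.30 and 10.65 in Il10ra_mKO, and at 11.19 in Il10_KO against 10.63. Ch25h, which makes 25-hydroxycholesterol, was at 7.13, 6.85 and 7.51 in resident WT and at 6.54 and 7.37 in Il10ra_mKO, with array 1 low and array 2 inside the WT range. Neither passed (limma, adjusted p = 0.678 and 0.845).

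Of 52 further lipid genes in a list of uptake, storage, fatty acid, nuclear receptor and efflux genes, 45 were measured and 0 passed over all genes by limma in Il10ra_mKO. At an unadjusted p under 0.05 by limma 5 were higher and 2 lower, against 4.06% and 3.86% of all genes. Of the 45 measured, 1 was at least 2-fold higher and 1 at least 2-fold lower, against 0.953% and 1.43% of all genes. Both were among these 7. Fabp5, a fatty acid carrier of activated macrophages, was at 7.76, 7.89 and 8.67 in resident WT and at 10.12 and 9.99 in Il10ra_mKO. Both mutant arrays were far above WT, by 1.95 ± 0.33 (SE; limma, adjusted p = 0.341), and Il10_KO stood at 8.97 against 7.93. Cd36, a receptor for oxidised lipoprotein and fatty acids, was at 11.15, 10.85 and 10.67 in resident WT and at 9.52 and 10.11 in Il10ra_mKO. It was lower in both mutant arrays by -1.07 ± 0.25 (SE; limma, adjusted p = 0.450), whereas Il10_KO stood at 10.94 against 10.67, and the test of that difference of effects gave an adjusted p of 0.311 by limma.

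Over the 36 members the differences in Il10ra_mKO and Il10_KO, which share no arrays, had the same sign for 25, against 64.1% of all genes. Their Pearson r was 0.76 across the 36 genes and 0.70 across all genes, a description across genes that are not independent replicates. By limma, 0 of the 36 members passed the test of the difference between both effects. The lowest adjusted p by limma was 0.285, for Cyp51, and 1 member had an unadjusted p under 0.05. Cyp51 had equal values in both Il10ra_mKO arrays, a tie that makes its spread look small. Over all genes 4.70% passed the test of the difference, and 913 of those 937 genes had tied values in the resident arrays.

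Some markers of other cells differed with the genotype too. The counts below stand beside shares of 8.92% of all genes above and 8.50% below all resident WT arrays in Il10ra_mKO. Of 10 dendritic cell markers, 4 were above and 3 below all resident WT arrays in Il10ra_mKO, so the list had no common direction. Clec9a was higher, at 8.58 and 9.32 against 5.65 to 6.34, as was Ccr7, at 9.57 and 9.92 against 6.64 to 8.07. Cd209a was lower, at 6.47 and 7.16 against 8.63 to 9.65, as were Siglech, at 5.43 and 5.45 against 6.80 to 7.22, and Kmo, by -0.72 on average. The mean of all 10 was 6.18 to 6.48 in resident WT and 6.44 and 6.66 in Il10ra_mKO. Under the overall median in every array were 4 of the 10, Zbtb46 among them. In Il10_KO Clec9a and Ccr7 were higher, at 8.44 each against 5.80 and 6.38, and Cd209a was lower, at 5.69 against 8.12, as were Kmo and Siglech, by -0.92 and -0.74. The median of the 10 was 0.06 in Il10ra_mKO and -0.07 in Il10_KO. Of the 14 epithelial markers 6 were below all resident WT arrays and 0 above, and of 10 fibroblast and muscle markers also 6 below and 0 above, with a mean of 7.06 to 7.55 in resident WT and 6.65 and 6.55 in Il10ra_mKO. Of 10 neutrophil markers 6 were higher without overlap, with a mean of 6.28 and 5.89 against 5.65 to 5.70. However, 5 of the 10 were under the overall median in every array, among them Cxcr2 and Mpo, which were higher by 0.21 and 0.04. Of 9 measured B and plasma cell markers 3 were higher and 1 lower without overlap, with a mean of 7.88 and 8.32 against 7.56 to 7.71 and Ms4a1 at 6.72 and 8.16 against 5.70 to 6.19. Of 8 endothelial markers 5 were lower and 0 higher, with a mean of 5.99 and 5.85 against 5.97 to 6.13. Of 8 measured T and innate lymphoid markers 1 was higher and 0 lower. In these lists 3 endothelial and 5 lymphoid markers were under the overall median in every array. The mean of the 8 measured monocyte markers was 7.77 to 7.89 in resident WT and 7.81 and 7.25 in Il10ra_mKO. Of these, 1 was higher and 3 were lower without overlap, and 2 were under the overall median in every array. F13a1 was lower, at 7.57 and 7.40 against 9.89 to 10.99, as were Fn1 and Vcan, by -1.46 and -0.25 on average. Hp was higher, at 7.86 and 5.62 against 4.84 to 5.12. The part of these cells in the values of Nr1h3, Abcg1 and Stard4 was not tested.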

How the data were processed

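The deposited table holds 35399 probe set rows for 7 arrays. Its values are on the log2 scale, and the submitters' processing notes name RMA, which corrects background, normalizes and summarises probes, and Partek. No source used here gives the versions or says whether the authors normalized all arrays together before they deposited the log2 values. RMA pulls low values together, so folds of dim genes come out small.

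The probe table names 1 gene for 21789 rows, several for 1621 and none for 11989. By gene ID, 21698 of the rows with 1 gene matched RefSeq, used for names only. The brightest row per gene was kept (19938 genes). The row that names Srebf2 with another gene was not used. limma 3.58.1 in R 4.3.3 fitted the 4 group means to all 7 arrays (3 residual degrees of freedom, prior 0.831, variance trend), two-sided, adjusted by Benjamini-Hochberg, and was tested on simulated data. Replicate numbers follow accession order and only name arrays. Nothing in the labels ties the arrays of a group to separate mice; p-values then measure only the spread between these samples, possibly a technical one. The extraction kit differs between samples 1 and 2 and the others, so kit and sort label cannot be told apart.

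All members may be named; array values are given for members that differed at an unadjusted p under 0.05, by 2-fold or without overlap, and for a few set genes. Others are given where they show the spread between arrays. Members and lists were chosen with earlier results of these data known. The number of arrays limits the precision.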

Additional observations from a re-analysis of the deposited data

How the results depend on the processing

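Members with an adjusted p under 0.05 numbered 0 under all 12 alternatives run (no variance trend, brightness filter, mean of rows, quantile normalization, median centring, resident arrays only, number runs as a block, and each of the 5 resident arrays left out). Nr1h3 stayed between 1.41 and 1.99, with adjusted p from 0.0561 to 0.783, and Abcg1, Stard4, Pmvk, Insig1, Mvd, Pltp and Fasn kept their direction in all 12. Sc5d turned to -0.024 with quantile normalization. Without the variance trend, 2 members (Pltp and Stard4) were lower at an unadjusted p under 0.05. With 1 array left out, 1 to 5 members were higher and 0 to 4 lower at that level; 1 was higher without Il10ra_mKO array 2 or WT array 2 and 2 without WT array 1, and 0 were lower without either Il10ra_mKO array, where the spread comes from WT alone. Synthesis minus efflux without Nr1h3 and Abcg1, an alternative chosen after seeing the data, was 0.078 in Il10ra_mKO and -0.28 in Il10_KO; the cause was not tested.

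Over all genes, 1 gene passed in Il10ra_mKO, 12 with the brightness filter, 146 with median centring, 114 with quantile normalization, 4 without the variance trend, 0 with the number runs as a block, and 0 to 267 with 1 array left out. The difference of effects called 937 genes, and 1 with the brightness filter, 17 with median centring, 8 with quantile normalization, 30 without the variance trend and 0 to 2200 with 1 array left out. The labels give no replicate numbers shared between groups, so the runs of title numbers served as the block.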
